A study of Oryza sativa with 12 samples.

Results

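The response of the rice cultivar 93-11 to heat stress (HS) was read from 6 RNA-seq libraries, 3 of HS seedlings and 3 of normal seedlings, over all identifiers of the LOC_Os form whose FPKM was 1 or more in no fewer than 3 of these libraries. Of 28124 such identifiers listed for 93-11, 19839 met the rule and are the genes described here, while 8285 stayed below it. The series as a whole lists 31607 LOC_Os identifiers for 93-11 and Nip together. 93-11 is the Indica cultivar of the study and Nip, or Nipponbare, its Japonica cultivar. Seedlings were 3 weeks old, RNA was taken from their aerial parts, and they were grown in culture solution with 10 h of light at 800 µmol m-2 s-1 and 14 h of darkness. The HS group was then kept at 45 °C for 36 h at a humidity above 80% and in dimmer light of 60 to 80 µmol m-2 s-1. No normal seedlings at that light and humidity are described, so heat, dim light and humid air cannot be told apart in any difference given here. The clock hour of collection is not given in the sources used here. Nip was treated alike, with 3 libraries a group. The libraries of a group are biological replicates by the study's methods, with no statement of how plants were shared out among them.

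When cells overheat, proteins unfold, and heat shock factors (HSFs), transcription factors that bind the promoters of heat shock genes, raise the chaperones that hold, refold or disentangle those proteins. Leaves of a seedling otherwise spend much of their messenger RNA on photosynthesis, whose Rubisco activase is known as a heat-sensitive step, and leaves that are dark, starved of sugar or ageing are known to take down chlorophyll and reuse their proteins. To follow these functions, 369 loci were placed on 43 lists of known rice gene families, of which 322 loci were among the genes tested, 20 fell below the filter and 27 were not analysed here. The files give identifiers without names. Family membership and names therefore come from published rice gene families written down by hand, and a gene symbol is printed only where the RefSeq table of rice genes carries that symbol at the place on the chromosome that the locus number predicts, which held for 201 of the 322 genes. The others are given by identifier and list.

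The libraries of a group lay close to each other, with correlations of log2(FPKM + 1) of at least 0.9905, against 0.765 to 0.77 between normal and HS libraries. FPKM, the fragments of a gene scaled by its length and by the mapped fragments of its library, summed to 582896 to 617044 in the normal and 794246 to 810922 in the HS libraries, a ratio of 1.35 between the group means, and the 10 most expressed identifiers took 7.32 to 7.65% of the sum in normal and 13.4 to 14% in HS libraries. Genes were called upregulated or downregulated upon HS where limma gave an adjusted p (Benjamini-Hochberg) under 0.01 and the change in mean log2(FPKM + 1) was 1 or more in size. On that scale, changes of weakly expressed genes come out too small. Over all 19839 genes 22.4% were upregulated and 27.7% downregulated, with a median log2 fold change of 0.02, and these shares are the background for each list. The split depends on scale: 4446 genes rose and 5500 fell as deposited, while with each library rescaled to an equal sum 3151 rose and 7035 fell, the median of all genes moving by -0.41, and with quantile normalization 4902 rose and 4802 fell, the median moving by 0.11. Of the 212 called genes that the naming rule selected, none had overlapping groups, which 87.8% of all genes did not have either. Their adjusted p values ran from 1.6e-11 to 6.5e-05 and the median SE of their log2 fold changes was 0.06. Genes under 1 in every normal library, 885 in all and 18 on the lists, passed the filter only through their HS values, and 2311, of which 21 were on the lists, only through their normal values. Such genes had to differ between the groups, so beside each list they enter their number is given and nothing is read from their calls.

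**Figure D1:**
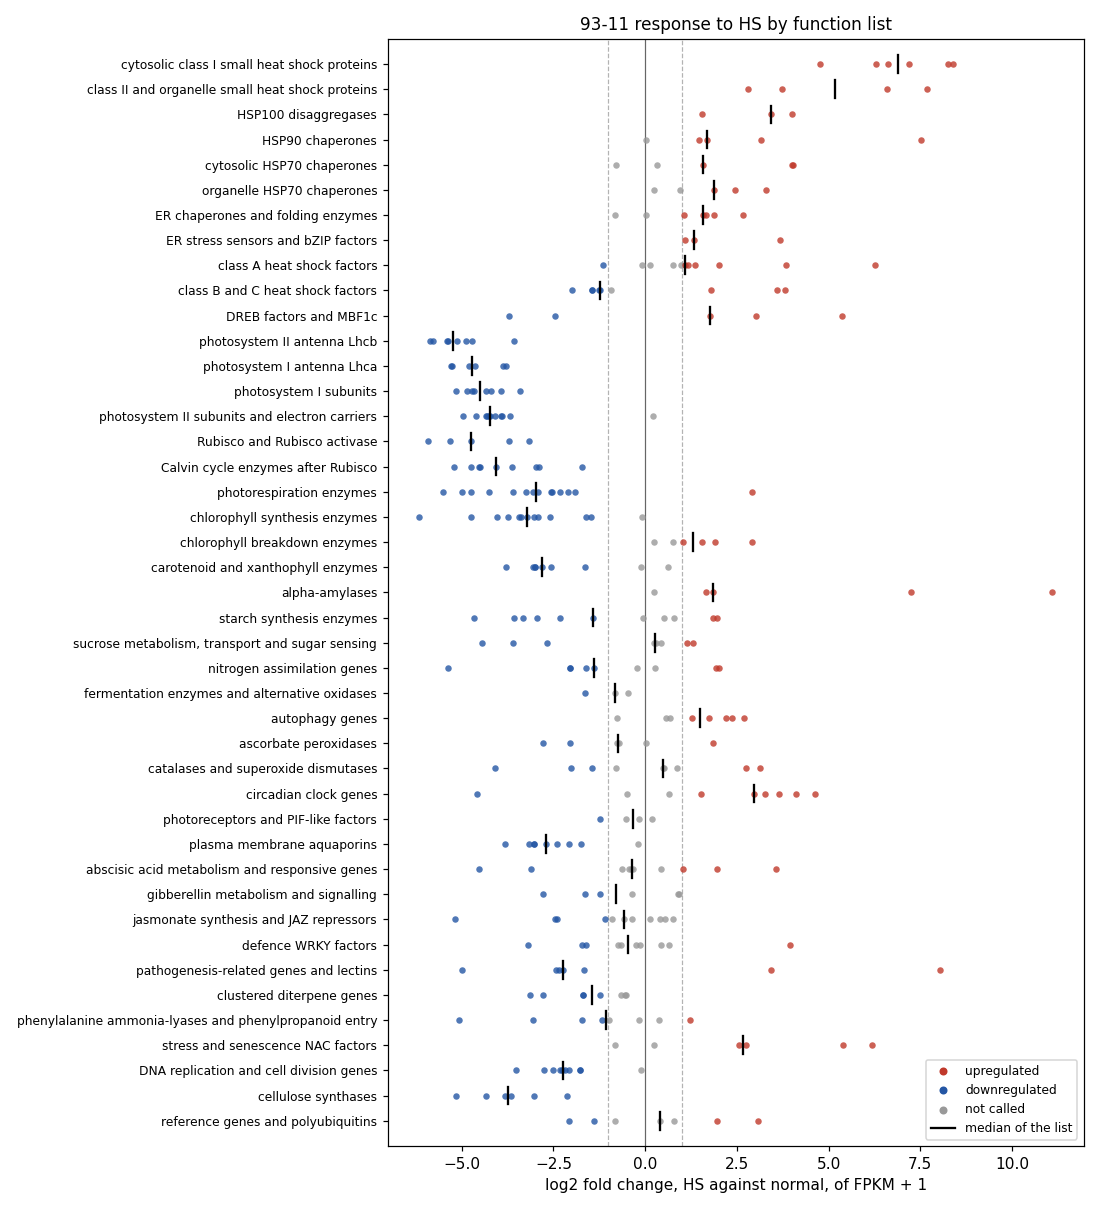
Log2 fold change of HS against normal (x axis, on the FPKM + 1 scale) for the members of each of the 43 function lists (rows), with 1 point a gene colored by its call, a black bar at the median of the list and dashed lines at -1 and 1. The photosynthesis lists lie at medians of -4.07 to -5.24 and the class I small heat shock proteins run from 4.76 to 8.39. Of these 6 small heat shock protein genes, 4 were admitted by their HS values alone.

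Small heat shock proteins bind unfolding proteins and keep them from clumping. Of the 6 tested members of cytosolic class I, 4 (OsHsp16.9A, OsHsp16.9B, OsHsp16.9C and OsHsp17.4) were under 1 in every normal library and entered the test through their HS values alone. The other 2, OsHsp17.9A and OsHsp17.7, were upregulated. OsHsp17.9A (LOC_Os03g15960) was the most expressed, at 35.4, 36.6 and 40.9 in the normal libraries and 3149, 3022 and 2899 in the HS libraries, a log2 fold change of 6.29 ± 0.06 (SE, n = 3 a group, as throughout). The HS values lay far above the normal ones with no overlap. OsHsp17.4 (LOC_Os03g16020) went from 0.574, 0.51 and 0.312 to 523, 480.4 and 462, and OsHsp16.9A (LOC_Os01g04370) from 0.477, 0.391 and 0.176 to 437, 414 and 380.1. Both are among the 4 admitted by their HS values alone, so nothing is read from these changes. The smallest change on the list was that of OsHsp17.7 (LOC_Os03g16040), at 4.76 ± 0.14. Several of these genes are close copies that sit side by side, and how reads were split among them cannot be seen in the files.

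On the list of class II and organelle forms, 3 of 4 genes entered through their HS values alone, and the other one, Hsp24.1, was upregulated. Hsp26.7 (LOC_Os03g14180), the chloroplast form, measured 0.118, 0.266 and 0.0715 in normal and 235, 239 and 233 in HS libraries. Hsp24.1 (LOC_Os02g52150), the mitochondrial form, was already present without heat, at 22.3, 19.7 and 21, and reached 311, 284 and 284. From these different starting levels, with log2 fold changes of 7.69 ± 0.07 and 3.74 ± 0.06, the pair came to like FPKM upon HS. Hsp18.0 (LOC_Os01g08860), of cytosolic class II, had the lowest level of the list upon HS, with 0.394, 0.0784 and 5.0e-05 without heat and 9.59, 4.45 and 7.64 upon HS.

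The disaggregases of the HSP100 family, ATP-driven rings that thread proteins out of aggregates, were upregulated in 3 of 3 cases. OsHSP101 (LOC_Os05g44340), the cytosolic form, had FPKM values of 5.81, 5.92 and 5.76 in normal and 106, 113 and 107 in HS libraries, a log2 fold change of 4.01 ± 0.05. OsClpB-m (LOC_Os02g08490), the mitochondrial form, rose by 3.42 ± 0.07 and OsClpB-c (LOC_Os03g31300), the chloroplast form, by 1.55 ± 0.05 on the log2 scale. The chloroplast form thus changed the least of the 3 and had the highest normal level, 24.6, 24.8 and 24.4.

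Among the HSP90 chaperones, which mature kinases and receptors, 4 of 5 tested members were upregulated, 1 of them, LOC_Os04g01740, admitted by its HS values alone. OsHSP81-2 (LOC_Os09g30412) was the most expressed in both groups, at 214, 195 and 197 in normal and 622, 713 and 634 in HS libraries. OsHSP81-1 (LOC_Os08g39140) measured 50.2, 52.3 and 58.3 without heat and 481, 499 and 489 upon HS. LOC_Os04g01740, on the same list, was near 0 without heat, at 0.226, 0.25 and 0.234, and stood at 219.5, 234 and 221 upon HS, so that under heat the 3 genes were of like order. LOC_Os08g38086 had 12, 10.9 and 11.3 in normal and 11.4, 10.9 and 12.3 in HS libraries, with overlapping groups.

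HSP70 genes, whose products fold new proteins and refold damaged ones, divided. On the cytosolic list 3 of 5 were upregulated, led in level by LOC_Os11g47760 with 541, 557 and 559 in normal and 1633, 1693 and 1644 in HS libraries. LOC_Os05g38530 had the largest change, from 9.62, 9.58 and 9.7 to 171, 178 and 168. In contrast, LOC_Os03g16860 was lower in each HS library, with 289, 299 and 311 against 168, 183 and 167. Its log2 fold change of -0.80 ± 0.05 did not reach the size of a call, but was -1.24 after quantile normalization and -1.23 with sums rescaled, where it was called downregulated. Of the organelle HSP70 genes, LOC_Os02g53420, LOC_Os03g02260 and LOC_Os09g31486 rose by 1.86 ± 0.06, 2.45 ± 0.06 and 3.30 ± 0.07. The 2 others, LOC_Os05g23740 and LOC_Os12g14070, were not called, with 0.25 ± 0.04 and 0.94 ± 0.05.

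**Figure D2:**
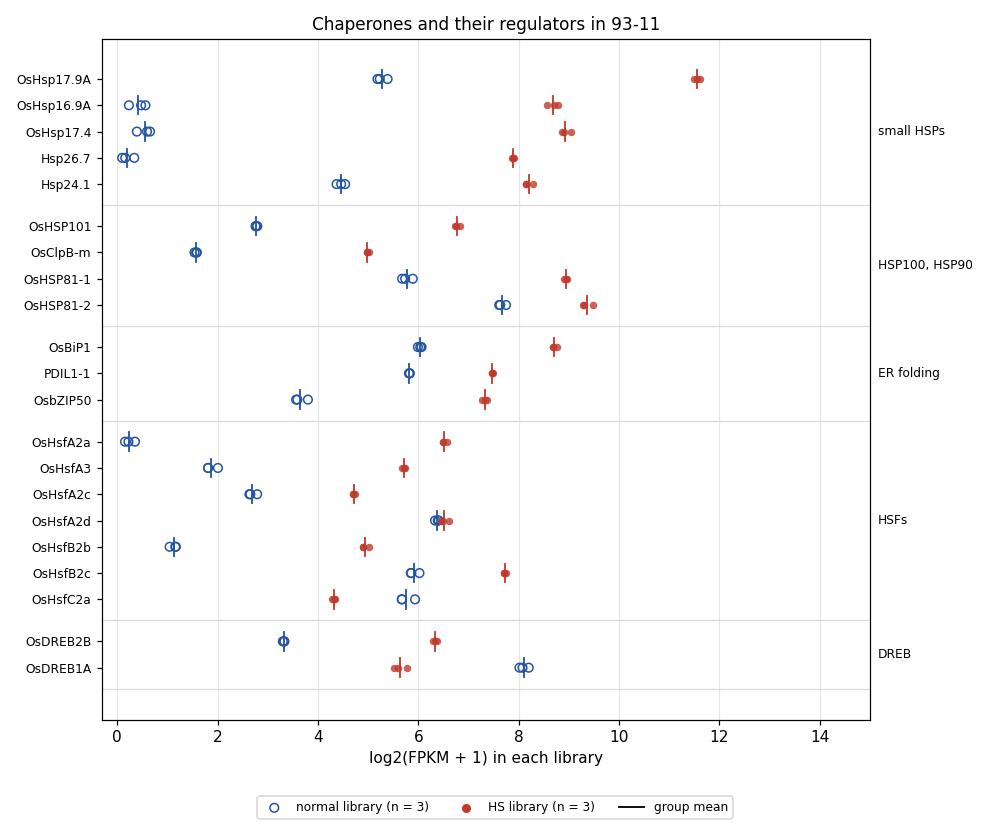
Level of chaperones and their regulators as log2(FPKM + 1) (x axis) in each of the 3 normal (open) and 3 HS (filled) libraries of 93-11, with bars at the group means of the log2 values. OsHsp17.9A stands highest upon HS and OsHsfA2a has the widest gap among the HSFs, while the values of OsHsfA2d lie next to each other.

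Chaperones of the endoplasmic reticulum (ER), where secreted and membrane proteins fold, rose too, with 5 of 7 tested members upregulated and none downregulated. OsBiP1 (LOC_Os02g02410), the HSP70 of the ER lumen, measured 62.6, 64.7 and 65.9 in normal and 409, 432 and 408 in HS libraries, a log2 fold change of 2.67 ± 0.04. OsBiP2 (LOC_Os03g50250), OsBiP3 (LOC_Os05g30480) and OsBiP4 (LOC_Os05g35400), of the same family, did not pass the filter. The disulfide isomerases PDIL1-1 (LOC_Os11g09280) and PDIL2-3 (LOC_Os09g27830), which form and reshuffle disulfide bonds, rose by 1.65 ± 0.04 and 1.58 ± 0.06. LOC_Os07g14270, on the same list, had 86, 92.1 and 93.3 without heat and 94.6, 91.9 and 91 upon HS, a log2 fold change of 0.03 ± 0.04 with overlapping groups. With equal sums 4 genes of the list rose and 1 fell. The list holds 1 gene, LOC_Os03g61670, that was under 1 in every HS library and entered through its normal values alone. Its log2 fold change of -0.81 was the lowest of the list, and nothing is read from its call.

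Upstream of them, OsIRE1 (LOC_Os07g28820), the membrane sensor that splices the messenger of OsbZIP50 when unfolded protein builds up, went from 16.4, 16.7 and 15.2 to 41.6, 42.2 and 42.2. OsbZIP50 (LOC_Os06g41770) itself had 10.8, 11 and 12.9 in normal and 164, 159 and 154 in HS libraries, a log2 fold change of 3.67 ± 0.07, the largest of the 3 tested genes of the list, all of which were upregulated. FPKM values do not tell the spliced from the unspliced form. OsbZIP39 (LOC_Os05g34050), a membrane-held factor freed by ER stress, rose by 1.09 ± 0.06. Rescaling the libraries to equal sums ended the calls of OsIRE1, with 0.93, and of OsbZIP39, with 0.69.

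Class A HSFs, which carry an activation domain, were upregulated in 6 of 11 cases, of which OsHsfA2a entered through its HS values alone, and downregulated in 1. OsHsfA2a (LOC_Os03g53340) was almost absent without heat, at 0.168, 0.114 and 0.279, and reached 94.5, 89.3 and 88.8 in the HS libraries, a log2 fold change of 6.28 ± 0.08. OsHsfA3 (LOC_Os02g32590) rose from 2.51, 2.51 and 3.02 to 50.2, 52 and 51.6, and OsHsfA2c (LOC_Os10g28340) from 5.21, 5.91 and 5.29 to 25.1, 24.9 and 25.7. The most expressed class A gene in the normal libraries was OsHsfA2d (LOC_Os03g06630), with 79.6, 82.8 and 83.9 against 96.3, 89.3 and 86, and it was not called. Upon HS the FPKM of OsHsfA2a thus came up to that of OsHsfA2d. HsfA1 (LOC_Os03g63750) and OsHsfA9 (LOC_Os03g12370) passed narrowly, with 1.17 ± 0.09 and 1.07 ± 0.04, and lost their calls under quantile normalization, with 0.99 and 0.86, and with equal sums, with 0.76 and 0.66. OsHsfA2b (LOC_Os07g08140) was the only class A gene to fall, from 3, 3.31 and 4.19 to 0.945, 1.08 and 1.08, and with quantile normalization its fold change of -0.70 was not called.

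Classes B and C, which lack that activation domain, split into 3 upregulated and 5 downregulated genes of 9 tested. Leaving out the 4 that entered through 1 group alone, 2 of 5 rose and 2 fell. OsHsfB2c (LOC_Os09g35790) measured 56.7, 57.1 and 64 in normal and 208, 213 and 209 in HS libraries, and OsHsfB2b (LOC_Os08g43334) 1.06, 1.23 and 1.25 without heat and 28.6, 31.5 and 28.9 upon HS. OsHsfC1b (LOC_Os01g53220), with a log2 fold change of 3.60 ± 0.13, was under 1 in every normal library and entered through its HS values alone. OsHsfC2a (LOC_Os02g13800) fell from 50.0, 50.0 and 60.2 to 19, 19.3 and 18.5, and OsHsfC2b (LOC_Os06g35960) by the same order, with -1.27 ± 0.10. OsHsfB1 (LOC_Os09g28354) was lower in every HS library, with 68.8, 69.8 and 69.5 against 35.9, 37.1 and 34.3. Its log2 fold change of -0.94 ± 0.04 was not called, whereas quantile normalization gave -1.17 and equal sums -1.37, both called.

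DREB factors divided by type. OsDREB2A (LOC_Os01g07120) and OsDREB2B (LOC_Os05g27930), known in drought and heat responses, rose by 1.76 ± 0.08 and 3.01 ± 0.05, the latter from 8.86, 8.99 and 9.07 to 77.5, 79.1 and 81.6. OsDREB1A (LOC_Os09g35030) and OsDREB1C (LOC_Os06g03670), known in the cold response, fell, the former from 269, 258 and 293 to 54, 44.6 and 47.1. The 3 HS values of OsDREB1C ran from 0.97 to 3.23 and its normal values from 28.8 to 46. The largest rise of the list was that of LOC_Os06g39240, from 1.78, 0.963 and 1.35 to 111, 82 and 93.9.

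Genes of the light reactions fell almost throughout. All 8 light-harvesting genes of photosystem II (Lhcb), whose products bind chlorophyll and pass light energy on, were downregulated, with a median log2 fold change of -5.24, and so were all 6 of photosystem I (Lhca), with a median of -4.71. CAB2R (LOC_Os01g41710) had 5125, 5363 and 5965 in the normal and 159, 159 and 152 in the HS libraries. RCABP89 (LOC_Os03g39610) had 3723, 3822 and 4267 without heat and 97.8, 96.3 and 89.1 upon HS. CAB1R (LOC_Os09g17740) changed the least of the 8, from 3004, 3144 and 3576 to 267, 278 and 262, a log2 fold change of -3.58 ± 0.07. In bulk tissue, fewer green cells and less of these messengers per cell cannot be told apart.

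All 8 tested subunits of photosystem I were downregulated, with a median of -4.51, as were 10 of 11 subunits and electron carriers of photosystem II and the chain behind it, with a median of -4.23. PETE (LOC_Os06g01210), plastocyanin, which carries electrons to photosystem I, measured 2366, 2463 and 2560.0 in normal and 87.4, 72.3 and 75.5 in HS libraries. PetC (LOC_Os07g37030), the Rieske protein of the cytochrome complex, had a log2 fold change of -3.93 ± 0.07 and OEE3 (LOC_Os07g36080), of the water-splitting complex, one of -4.10 ± 0.06. The exception was LOC_Os04g59440, with 2.69, 2.1 and 2.39 without heat and 2.33, 3.32 and 3.13 upon HS. It was low in both groups. Together with Rubisco and the Calvin cycle, these lists took 13.5 to 14% of the summed FPKM in normal and 0.417 to 0.431% in HS libraries, and 8 of the 10 genes with the highest mean in normal libraries were theirs, against 0 of 10 in HS libraries.

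Rubisco, which fixes CO2, and its activase followed, 5 of 5 downregulated with a median of -4.76. RBCS-C (LOC_Os12g17600), a small subunit gene, went from 5757, 5712 and 6003 to 440.0, 452 and 426. RCA (LOC_Os11g47970), the activase that frees Rubisco of inhibiting sugars, went from 5458, 5662 and 5900.1 to 94.2, 94.3 and 90.6, a log2 fold change of -5.92 ± 0.04 and the largest fall of the list. So the activase, below RBCS-C by little without heat, lay below it by a wide margin upon HS. The small subunit genes are close copies of each other, and reads that match several of them limit what is known of each.

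All 9 tested Calvin cycle enzymes after Rubisco were downregulated, with a median of -4.07. ALDP (LOC_Os11g07020), the chloroplast aldolase, measured 3728, 3875 and 4029 in normal and 168, 173 and 165 in HS libraries. FBPase (LOC_Os03g16050) had a log2 fold change of -4.54 ± 0.07 and RPE (LOC_Os03g07300), the ribulose-phosphate epimerase, one of -2.98 ± 0.04. The smallest fall was that of LOC_Os06g04270, with 324, 330.1 and 348 against 96.2, 102 and 101.

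**Figure D3:**
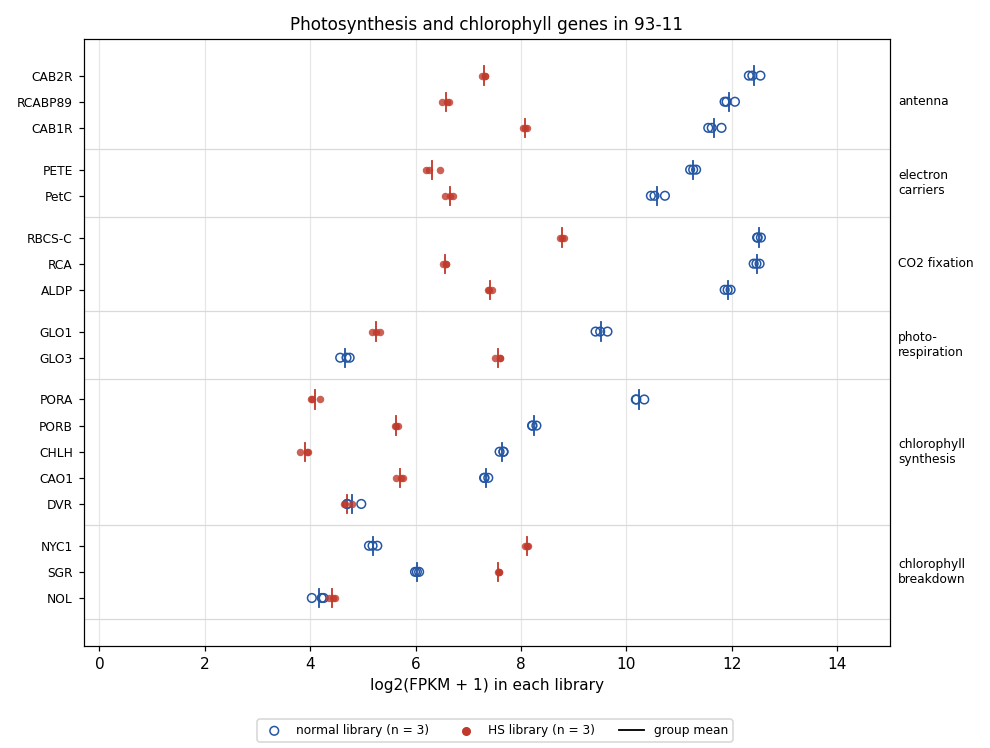
Level of photosynthesis and chlorophyll genes as log2(FPKM + 1) (x axis) in each of the 3 normal (open) and 3 HS (filled) libraries, with bars at the group means of the log2 values. Genes of light harvesting, CO2 fixation and chlorophyll synthesis sit lower upon HS except DVR, whose groups overlap, whereas GLO3, NYC1 and SGR sit higher.

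Photorespiration, which salvages the product of the oxygen reaction of Rubisco, had 13 downregulated genes, 1 of them under 1 in every HS library, and 1 upregulated gene of 14. GLO1 (LOC_Os03g57220), a glycolate oxidase of peroxisomes, fell from 682, 724 and 797 to 35.2, 39.3 and 37.2. GS2 (LOC_Os04g56400), the chloroplast glutamine synthetase that takes up the released ammonia, fell from 426, 443 and 439 to 14.5, 15.2 and 15.9. The gene that went the other way was GLO3 (LOC_Os04g53210), of the same oxidase family, with 22.7, 24.8 and 25.9 in normal and 192, 193 and 182 in HS libraries, a log2 fold change of 2.90 ± 0.06. In the HS libraries GLO3 had a higher FPKM than GLO1, in the normal libraries a lower one.

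Chlorophyll synthesis was downregulated in 12 of 13 tested genes, with a median log2 fold change of -3.21. PORA (LOC_Os04g58200), a protochlorophyllide reductase that works in light, measured 1158, 1165 and 1294 in normal and 15.4, 15.2 and 17.2 in HS libraries, a log2 fold change of -6.15 ± 0.06. PORB (LOC_Os10g35370), of the same family, fell from 297, 295 and 312 to 48, 48.3 and 50.0 and was thereby the higher of the pair upon HS. The subunits of magnesium chelatase, which puts magnesium into the ring, all fell, with -3.74 ± 0.05 for CHLH (LOC_Os03g20700), -2.91 ± 0.07 for CHLD (LOC_Os03g59640) and -3.39 ± 0.06 for CHLI (LOC_Os03g36540). DVR (LOC_Os03g22780), which reduces a vinyl side group, had 25, 25 and 30.3 without heat and 24.2, 23.8 and 26.6 upon HS, with overlapping groups.

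Chlorophyll breakdown went the other way, with 4 of 6 genes upregulated and none downregulated. Under quantile normalization and with equal sums, 3 were upregulated. NYC1 (LOC_Os01g12710), the reductase that begins the breakdown of chlorophyll b, went from 37.7, 35.3 and 33.7 to 270.5, 279 and 277. SGR (LOC_Os09g36200), whose loss leaves leaves green as they age, went from 62.5, 64.1 and 66 to 191, 187 and 189.8. NOL (LOC_Os03g45194), a partner of NYC1, had a log2 fold change of 0.25 ± 0.07 and RCCR1 (LOC_Os10g25030), a late step, one of 0.76 ± 0.11, and neither was called. Carotenoid genes were downregulated in 7 of 9 cases. Among them PSY1 (LOC_Os06g51290) and PSY2 (LOC_Os12g43130), phytoene synthases that open the pathway, fell, with log2 fold changes of -3.05 ± 0.09 and -3.01 ± 0.05, whereas PDS (LOC_Os03g08570), the next enzyme, had 11.8, 12.9 and 12.7 without heat and 18.8, 20.6 and 19.4 upon HS and was not called.

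Starch-degrading alpha-amylases held the largest rise of all genes with a mean FPKM of at least 10. RAmy3D (LOC_Os08g36910), known as an amylase that answers sugar starvation, measured 7.29, 5.22 and 6.14 in the normal and 15561, 16019 and 15259 in the HS libraries, a log2 fold change of 11.09 ± 0.09. This gene alone took 1.92 to 1.98% of the summed FPKM upon HS. RAmy3A (LOC_Os09g28400), of the same subfamily, went from 0.0433, 0.0283 and 0.0303 to 151, 166 and 149. RAmy3B (LOC_Os09g28420) and RAmy3E (LOC_Os08g36900) rose to lower levels, with 3.93, 3.93 and 4.19 and 2.57, 1.91 and 2.13 in the HS libraries. RAmy2A (LOC_Os06g49970) had a log2 fold change of 0.24 ± 0.11 and was not called, and RAmy1A (LOC_Os02g52710), known from germinating grain, was below the filter. RAmy3A, RAmy3B and RAmy3E were under 1 in every normal library and so entered through their HS values alone, while RAmy3D did not.

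Of 11 tested starch synthesis genes, 6 were downregulated and 2 upregulated, or 5 and 1 of the 9 that did not enter through 1 group alone. Quantile normalization gave 3 upregulated genes. AGPS2 (LOC_Os08g25734), a subunit of ADP-glucose pyrophosphorylase, the first committed step, fell from 84, 84.4 and 82.6 to 6.25, 6.41 and 5.52. LOC_Os07g22930, the largest fall of the list, went from 55.7, 58.7 and 58.5 to 1.41, 1.3 and 1.26. SBE1 (LOC_Os06g51084), a starch branching enzyme, rose from 18.1, 18 and 17.8 to 64.5, 68 and 68.7. In sucrose metabolism and transport, 3 of 8 genes fell and 2 rose, of which neither was called with equal sums. SUS1 (LOC_Os03g28330), a sucrose synthase, fell from 414, 427 and 434 to 18.7, 18.1 and 18.8, while SUS2 (LOC_Os06g09450), of the same family, had 47.9, 50.7 and 49.1 without heat and 116, 125 and 126 upon HS. SUS2 was called upregulated, except with equal sums, where its log2 fold change was 0.87. SUT1 (LOC_Os03g07480), the sucrose transporter of phloem loading, had a log2 fold change of -3.59 ± 0.11. SnRK1A (LOC_Os05g45420) and MYBS1 (LOC_Os01g34060), a kinase and a factor of sugar sensing known to act on RAmy3D, had 0.23 ± 0.06 and 0.31 ± 0.06 and were not called.

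**Figure D4:**
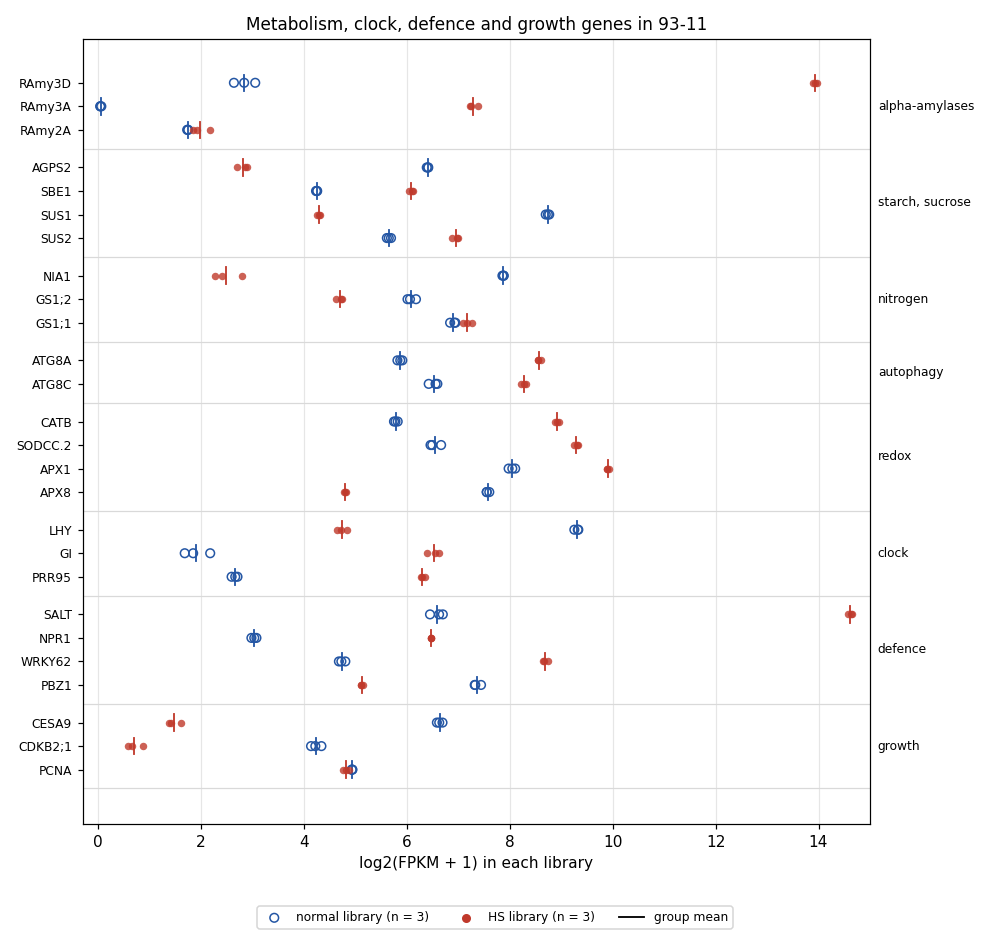
Level of genes of metabolism, clock, defence and growth as log2(FPKM + 1) (x axis) in each of the 3 normal (open) and 3 HS (filled) libraries, with bars at the group means of the log2 values. SALT and RAmy3D are the highest points upon HS, and NIA1, CESA9, LHY and SUS1 show the widest gaps toward the normal side.

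Of 9 nitrogen assimilation genes, 5 were downregulated and 2 upregulated. NIA1 (LOC_Os08g36480), a nitrate reductase, went from 234, 231 and 235 to 3.81, 4.32 and 5.97, a log2 fold change of -5.38 ± 0.12. AMT1;1 (LOC_Os04g43070), an ammonium transporter, fell with a log2 fold change of -1.62 ± 0.04 and GS1;2 (LOC_Os03g12290), a cytosolic glutamine synthetase, with -1.39 ± 0.06, while GS1;1 (LOC_Os02g50240) had 114, 120.4 and 122 without heat and 135, 152 and 143 upon HS and was not called. The genes that rose were LOC_Os03g18130, with 167, 169 and 176 in normal and 676, 703 and 679 in HS libraries, and LOC_Os01g48960, with 15.6, 15.9 and 12.9 without heat and 52.9, 61.6 and 62.5 upon HS.

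Autophagy genes, which form the vesicles that carry cell contents to the vacuole, were upregulated in 5 of 8 cases and downregulated in none, or in 4 and 1 with equal sums. ATG8A (LOC_Os07g32800), ATG8B (LOC_Os04g53240) and ATG8C (LOC_Os08g09240), the ubiquitin-like proteins that coat these vesicles, rose by 2.70 ± 0.04, 2.22 ± 0.05 and 1.75 ± 0.05. ATG8A went from 55.3, 57.5 and 59.2 to 374, 388 and 375. ATG8D (LOC_Os11g01010) had scattered normal values of 3.75, 6.91 and 13.1, and its HS values of 13.8, 10.6 and 9.19 overlapped them. Of the NAC factors of stress and leaf ageing, 4 of 6 rose, ONAC045 among them having entered through its HS values alone. LOC_Os11g03300 changed the most, from 2.27, 2.05 and 2.27 to 217, 239.5 and 235. SNAC2 (LOC_Os01g66120) went from 415, 420.5 and 427 to 2890.5, 2866 and 2793, and ONAC045 (LOC_Os11g03370) from 0.601, 0.375 and 0.574 to 60.4, 63.3 and 64.2. NAC5 (LOC_Os11g08210) had a log2 fold change of -0.82 ± 0.04, which was called downregulated under quantile normalization, with -1.09, and with equal sums, with -1.25.

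Of the ascorbate peroxidases, which remove hydrogen peroxide, 1 of 6 rose and 2 fell, or 4 with equal sums. Of the catalases and superoxide dismutases 2 of 9 rose and 3 fell, or 4 under quantile normalization and with equal sums. APX1 (LOC_Os03g17690), a cytosolic ascorbate peroxidase, rose from 251, 264 and 274 to 949.5, 973 and 946. APX8 (LOC_Os02g34810), of the chloroplast thylakoid, fell from 187, 187 and 193 to 26.2, 26.8 and 27, and APX4 (LOC_Os08g43560), of peroxisomes, had a log2 fold change of -2.05 ± 0.06. Likewise SODCC.2 (LOC_Os07g46990), a cytosolic superoxide dismutase, rose from 87, 89 and 100.5 to 639, 635 and 606, and SODCP (LOC_Os08g44770), the chloroplast copper-zinc form, fell from 176, 181 and 183 to 68.3, 64.6 and 62.3. SODCC.1 (LOC_Os03g22810), the other cytosolic form, had 247, 255 and 277 without heat and 147, 156 and 143 upon HS, a log2 fold change of -0.80 ± 0.05 that was called downregulated under quantile normalization, with -1.21, and with equal sums, with -1.23. CATB (LOC_Os06g51150), a catalase, rose from 52.8, 55.5 and 53.8 to 471, 493 and 481. LOC_Os03g03910, on the same list, fell from 1028, 1023 and 1079 to 61.5, 63.6 and 55.4. The order of the pair in FPKM was thus opposite in the 2 groups.

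Of the genes that regenerate NAD by fermentation, PDC2 (LOC_Os03g18220), a pyruvate decarboxylase, fell from 44, 45.8 and 48.4 to 14.5, 13.4 and 14.2. ADH1 (LOC_Os11g10480), the alcohol dehydrogenase, had 31.8, 33.2 and 32.1 without heat and 24.6, 23.4 and 21.3 upon HS and was not called. No gene of that list was upregulated. With equal sums a second gene, ADH2 (LOC_Os11g10510), was called downregulated at -1.22. It was under 1 in every HS library and entered through its normal values alone, so nothing is read from that call.

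Clock genes, which keep daily time, showed 6 upregulated and 1 downregulated gene of 9, or 4 and 1 of 7 without PRR1 and PCL1, which entered through their HS values alone. LHY (LOC_Os08g06110), which in plants peaks near dawn, went from 638, 643 and 609.7 to 24.12, 25.19 and 27.42. GI (LOC_Os01g08700), which peaks late in the day, went from 2.21, 2.59 and 3.52 to 82.6, 97.4 and 92.7. PRR95 (LOC_Os09g36220) and PRR1 (LOC_Os02g40510), pseudo-response regulators of the day and evening, rose by 3.65 ± 0.06 and 2.98 ± 0.09, and PCL1 (LOC_Os01g74020), an evening factor, by 4.12 ± 0.09. PRR37 (LOC_Os07g49460) had -0.49 ± 0.09 and ELF3-1 (LOC_Os06g05060) 0.65 ± 0.05, neither of them called. A difference in the hour of collection and an effect of HS on the clock cannot be told apart here. Of 4 tested photoreceptor and PIF-like genes, 1 was downregulated, at -1.22, and 0 upregulated, against 27.7% and 22.4% of all genes. The photoreceptors PHYA (LOC_Os03g51030) and PHYB (LOC_Os03g19590) were not called, with -0.51 ± 0.07 and 0.18 ± 0.06.

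Water channels of the plasma membrane (PIPs) were downregulated in 8 of 9 tested cases, with a median of -2.71. PIP1;2 (LOC_Os04g47220) fell from 721, 729.7 and 765 to 136, 145 and 137, PIP1;1 (LOC_Os02g44630) from 674, 675 and 723 to 85.6, 85 and 82.4, and PIP2;1 (LOC_Os07g26690) from 581, 626 and 656 to 77, 79.2 and 70.5. Their log2 fold changes were -2.40 ± 0.04, -3.02 ± 0.04 and -3.02 ± 0.06. PIP2;7 (LOC_Os09g36930) stood apart with 30.8, 32.8 and 31.8 in normal and 25.7, 30.9 and 26.1 in HS libraries.

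Genes of abscisic acid, the hormone of drought, were mixed, with 3 upregulated, 1 of them admitted by its HS values alone, and 2 downregulated of 10, or 3 downregulated with equal sums. NCED3 (LOC_Os03g44380), of its synthesis, had a log2 fold change of -3.12 ± 0.10 and ABA8ox1 (LOC_Os02g47470), of its breakdown, one of -4.53 ± 0.05. ABA8ox1 went from 336, 339 and 354 to 14.6, 13 and 14. LEA3 (LOC_Os05g46480), a protective protein that the hormone raises, went from 14.2, 14.1 and 15.2 to 187, 187 and 172, while RAB21 (LOC_Os11g26790), another such gene, had 13.5, 14.8 and 15.5 without heat and 10.0, 9.61 and 7.5 upon HS, a log2 fold change of -0.64 ± 0.11 that equal sums turned into a call at -1.06.

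For gibberellin, the growth hormone, 3 of 6 genes fell, 1 of them under 1 in every HS library, and none rose. Quantile normalization left 2 falls. GID2 (LOC_Os02g36974), which marks the repressor SLR1 for removal, fell from 85.3, 91.8 and 92.2 to 30.1, 28.1 and 25.7. SLR1 (LOC_Os03g49990), with -0.37 ± 0.05, and the receptor gene GID1 (LOC_Os05g33730), with 0.93 ± 0.05, were not called. SD1 (LOC_Os01g66100), the semidwarf gene of gibberellin synthesis, had 5.82, 6.46 and 8.52 without heat and 14.7, 13.3 and 12.8 upon HS, a log2 fold change of 0.89 ± 0.12. It was not called, but passed, with 1.03, without normal replicate 3, the highest of the normal values.

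Of the jasmonate genes, 4 of 11 fell and none rose. Under quantile normalization 5 fell and with equal sums 6. AOS1 (LOC_Os03g55800) and AOC (LOC_Os03g32314), of hormone synthesis, fell, with -2.47 ± 0.05 and -2.40 ± 0.05 on the log2 scale. JAZ9 (LOC_Os03g08310), a repressor that the hormone itself induces, fell from 173, 165 and 185 to 4.21, 3.79 and 3.45. JAZ12 (LOC_Os10g25290) and JAZ8 (LOC_Os09g26780), of the same family, were not called, with 0.41 ± 0.04 and 0.12 ± 0.06.

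Of the pathogenesis genes and lectins, 5 of 7 fell and 2 rose. SALT (LOC_Os01g24710), a mannose-binding lectin known from salt and drought stress, had the highest FPKM of all genes upon HS, with 97.7, 86.4 and 103 in normal and 25341, 25601 and 24425 in HS libraries, a log2 fold change of 8.03 ± 0.06. It took 3.08 to 3.16% of the summed FPKM of the HS libraries. NPR1 (LOC_Os01g09800), a regulator of the salicylic acid response, rose from 7.43, 6.88 and 7.19 to 87.7, 88 and 87.4. The 5 other tested genes of the pathogenesis list fell. Among them PBZ1 (LOC_Os12g36880) went from 159.8, 159 and 173 to 34.4, 33.4 and 33.6.

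Of the 10 WRKY factors on the list, 3 fell and 1 rose, against 4 falls under quantile normalization and 5 with equal sums. WRKY62 (LOC_Os09g25070), known in rice as a brake on defence, rose from 25.5, 24.6 and 26.9 to 429, 407 and 400.5. WRKY76 (LOC_Os09g25060), its neighbor on the chromosome, had 66.7, 67.7 and 70.4 without heat and 42.8, 42.7 and 43.3 upon HS and was not called. WRKY71 (LOC_Os02g08440) was the most expressed of the list in normal libraries and fell from 816, 769.7 and 856 to 247, 243 and 245. Of the clustered genes that make diterpene defence compounds, 5 of 8 fell and none rose, but all 5 were under 1 in every HS library, and none of the other 3 was called. CPS2 (LOC_Os02g36210) and CPS4 (LOC_Os04g09900), the cyclases that open the branches, are among these 5. CPS2 went from 8.64, 8.25 and 8.01 to 0.0835, 0.0358 and 0.0356 and CPS4 from 6.48, 6.6 and 7.15 to 0.112, 0.177 and 0.0788. KSL7 (LOC_Os02g36140), in the cluster of CPS2, had a log2 fold change of -0.55 ± 0.06 and was not called. Since the filter admitted CPS2 and CPS4 by their normal values alone, nothing is read from setting them beside KSL7. CHS1 (LOC_Os11g32650), chalcone synthase at the entry to flavonoids, fell from 99.4, 94.3 and 100.3 to 10.9, 11.1 and 10.8. Its list, which holds the phenylalanine ammonia-lyases, had 4 downregulated and 1 upregulated gene of 8, the latter not called with quantile normalization or equal sums.

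Genes of wall synthesis fell. All 6 cellulose synthases were downregulated, with a median of -3.74. CESA9 (LOC_Os09g25490), of the secondary wall, went from 97.9, 94.9 and 102 to 1.58, 2.07 and 1.67, CESA7 (LOC_Os10g32980) and CESA4 (LOC_Os01g54620), its partners, had log2 fold changes of -4.35 ± 0.07 and -3.81 ± 0.07, and CESA3 (LOC_Os07g24190), of the primary wall, one of -2.13 ± 0.07. DNA replication and cell division genes were downregulated in 9 of 10 cases, but 8 of these entered through their normal values alone. Those 8 were under 1 in every HS library, so nothing is read from their calls. Of the 2 others, 1 was downregulated. CDKB2;1 (LOC_Os08g40170), a kinase of mitosis, went from 17.6, 16.6 and 19.2 to 0.577, 0.836 and 0.492, and MCM3 (LOC_Os05g39850), of the helicase that opens DNA for copying, from 6.58, 5.99 and 6.35 to 0.0646, 0.0573 and 0.135. PCNA (LOC_Os02g56130), the clamp of DNA polymerase, was the exception with 29.4, 29.7 and 29.6 without heat and 28.4, 26.2 and 27 upon HS.

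Of 7 tested genes often taken as steady standards, 2 were upregulated and 2 downregulated, against 22.4% and 27.7% of all genes. Under quantile normalization and with equal sums 3 were downregulated. The counts are near the shares of all genes, so nothing is read from them. ACT1 (LOC_Os03g50885), actin, fell from 136, 139 and 144 to 49.7, 54.3 and 53.1. GAPC2 (LOC_Os04g40950), a cytosolic glyceraldehyde-phosphate dehydrogenase, had a log2 fold change of -2.07 ± 0.05, while GAPC1 (LOC_Os08g03290) had 248, 257 and 258 without heat and 331, 339.9 and 331 upon HS. REFA1 (LOC_Os03g08050), a translation elongation factor, had 629, 637 and 671 without heat and 1126, 1126 and 1120.4 upon HS, a log2 fold change of 0.80 ± 0.04 that was not called. LOC_Os06g46770 and LOC_Os02g06640, on the same list, rose by 1.96 ± 0.05 and 3.09 ± 0.04.

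Markers of leaf and other tissues were looked at beside the stated aerial origin of the RNA. Photosynthesis genes led the normal libraries, as given above. Of 4 root markers, 1 passed the filter and 2 were below it. The former, Lsi1 (LOC_Os02g51110), a silicon channel, was at 8.79, 8.13 and 7.71 in normal and 0.737, 0.774 and 0.331 in HS libraries. Lsi2 (LOC_Os03g01700), below the filter, was at or under 0.177 in every library. Lsi1 was thus present in every normal library, and where its RNA came from was not tested. LOC_Os05g41970, on the list of endosperm storage proteins, reached at most 0.752. Shoot meristem markers were not analysed here.

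Outside the lists, 8 of the 10 genes with the largest rise and 8 of the 10 with the largest fall, among called genes with a mean FPKM of at least 10, have no annotation in the sources used here and are given by identifier alone. LOC_Os09g03200 went from 0.575, 0.408 and 5.73 to 2632, 2934 and 2736, LOC_Os06g17076 from 1.16, 1.12 and 1.42 to 1859, 2031 and 2028, and LOC_Os01g27970 from 0.755, 0.462 and 0.612 to 976, 999 and 1071. In LOC_Os09g03200, normal replicate 3 was above the other normal libraries, and all 3 were far below the HS libraries. Its log2 fold change of 10.13 ± 0.51 was 10.86 without that replicate. LOC_Os01g47290, LOC_Os05g06404, LOC_Os09g03204, LOC_Os11g47520 and LOC_Os05g43895 had log2 fold changes of 8.46 to 9.43. LOC_Os05g43895 was listed at 0 in the 3 normal libraries. This gene, LOC_Os01g27970 and LOC_Os11g47520 were under 1 in every normal library. They entered through their HS values alone, so nothing is read from their calls. The largest falls were those of LOC_Os12g33130, from 526, 565 and 545 to 3.28, 4.56 and 6.62, and LOC_Os07g09190, from 228, 234 and 229 to 2.1, 1.59 and 1.38. LOC_Os08g07080, LOC_Os02g02930, LOC_Os12g33150, LOC_Os02g45450, LOC_Os04g36720 and LOC_Os01g13690 followed with -6.41 to -5.89. The second highest FPKM upon HS, picked out after the values were seen, was that of LOC_Os04g56430, with 65.6, 68.3 and 72.7 in normal and 19961, 19716 and 18846 in HS libraries. LOC_Os02g35500, which the study describes as a glyoxylate reductase, fell from 51.1, 53.1 and 55.2 to 9.74, 8.72 and 9.65, a log2 fold change of -2.38 ± 0.06.

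To see where the 93-11 response differed from that of Nip, treatment and cultivar were fitted together over 12 libraries as an interaction. Of 19296 genes, 40.5% differed between the cultivars at an adjusted p under 0.01 and a difference of at least 1 on the log2 scale, 20.8% with the more positive and 19.6% with the more negative response in 93-11. The summed FPKM rose upon HS in 93-11 and fell in Nip, so the same counts were taken with sums made equal. That moved the median difference over all genes from 0.03 to -0.77. Of the 19296 genes, 1764 were then more positive and 8074 more negative in 93-11, against 4023 and 3787 as deposited. These counts are the background for each equal-sum count of a list. Of the class I small heat shock proteins that did not enter through HS values alone, OsHsp17.9A differed by 2.90 ± 0.07, or 1.97 with equal sums, and OsHsp17.7 by 4.56 ± 0.19, or 3.77, both more positive in 93-11. All 8 Lhcb and all 6 Lhca genes responded more negatively in 93-11, with and without equal sums. The median log2 fold changes of these antenna lists in Nip were -1.93 for each. In contrast, of 11 jasmonate genes 1 differed, in the positive direction, a count that became 1 positive and 3 negative with equal sums. JAZ9, at a difference of 0.16 ± 0.12, was not called different. Reads of each cultivar were aligned to its own genome, so levels, unlike responses, are not set against each other between cultivars.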

How the data were processed

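Aerial parts of 93-11 and Nip seedlings were profiled by poly(A) RNA-seq with a strand-specific kit. The authors deposited FPKM per gene and library, which they scaled by gene length and mapped reads. The files used give no read counts, so depth cannot be read from them and no interval or detection limit was set. The study's methods name STAR and featureCounts with the genome of each cultivar, the submitters' processing notes HISAT2 2.0.4, StringTie 1.3.4d and DESeq2. Reads shared by close gene copies, and how FPKM was split among them, cannot be seen.

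Genes with an FPKM of 1 or more in no fewer than 3 of the 6 libraries of 93-11 entered limma 3.58.1 (R 4.3.3) with trended variance on log2(FPKM + 1), checked on simulated data. Calls needed an adjusted p (Benjamini-Hochberg) under 0.01 and a change of 1 or more on the log2 scale. Alone, an exact permutation test of 3 against 3 libraries cannot go below 0.1. The interaction with cultivar was fitted over 12 libraries. Alternatives were a pseudocount of 0.1, no filter, a test against the fold threshold, an adjusted p under 0.05, quantile, equal-sum and median ratio scaling, a replicate block and leaving out each library.

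The members, the 43 function lists and the tests were chosen with earlier results of these data known. Per list, the 6 genes of highest mean FPKM, the largest rise, the largest fall and genes against the rest were named, and the 10 largest rises and falls at a mean of at least 10. RAmy1A, Lsi2, PCL1, PRR1, PRR37, RPE, FBPase, SUT1, SnRK1A, DVR, AOC, CHLI, CHLD, JAZ8, WRKY76, PIP2;7, OsHsfA2c, OsBiP2, OsBiP3, OsBiP4, LOC_Os04g59440, LOC_Os05g41970 and genes named for their level upon HS were added after their values were seen. Hand-written names were looked up in the RefSeq table of assembly ASM3414082v1. As first written, 211 of 378 were found, 203 on the chromosome of the locus and 8 on another. After aliases and removals 232 were found, all within 1.5 Mb of the place predicted from the locus number.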

Additional observations from a re-analysis of the deposited data

Results flagged for a closer look

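The genes of the naming rule are given here where the interaction of treatment and cultivar passed the threshold with a difference of at least 3 on the log2 scale, both as deposited and with equal library sums. Each value is the log2 fold change in 93-11 minus that in Nip, and genes without a checked symbol are given by identifier.

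The chaperone genes that passed this cut on size were more positive in 93-11. Smaller differences are left out by the cut, and some of these genes entered through their HS values alone, as given below. Nothing is therefore read from their shared direction. With equal sums and a threshold of 1, the HSP90 list had 2 more positive and 1 more negative gene of 4. The cytosolic HSP70 list had 3 more positive and 0 more negative of 5. Of all 19296 genes, 1764 were more positive and 8074 more negative. Among small heat shock proteins, OsHsp17.4 differed by 6.79 ± 0.41, OsHsp17.7 by 4.56 ± 0.19, OsHsp16.9B by 3.97 ± 0.18 and LOC_Os04g36750 by 3.82 ± 0.13. On the HSP90 list, OsHSP81-1 differed by 4.43 ± 0.07 and LOC_Os04g01740 by 3.83 ± 0.08, and on the cytosolic HSP70 list LOC_Os05g38530 by 5.46 ± 0.06 and LOC_Os01g62290 by 4.85 ± 0.09. In Nip, the log2 fold change of OsHSP81-1 was -1.26. Of the regulators, OsHsfA2a differed by 4.94 ± 0.11, OsHsfB2b by 4.72 ± 0.11, the ER stress factor OsbZIP50 by 4.12 ± 0.09 and LOC_Os06g39240, on the list of DREB factors and MBF1c, by 6.65 ± 0.22.

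Also more positive in 93-11 were RAmy3A at 6.51 ± 0.11, the lectin gene SALT at 4.42 ± 0.10, WRKY62 at 4.96 ± 0.07, ONAC045 at 3.75 ± 0.13 and LOC_Os11g03300, on the same list of NAC factors, at 5.53 ± 0.10. LOC_Os12g14440, on the pathogenesis list, differed by 8.93 ± 0.29, with -10.60 in Nip, and LOC_Os02g41680, on the phenylalanine ammonia-lyase list, by 3.97 ± 0.11. Outside the lists, LOC_Os11g47520 differed by 8.46 ± 0.11, LOC_Os05g43895 by 6.95 ± 0.69 and LOC_Os01g47290 by 3.95 ± 0.41.

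More negative in 93-11 were the silicon channel gene Lsi1 at -4.19 ± 0.15, the sucrose synthase gene SUS1 at -3.96 ± 0.05 and ABA8ox1, of abscisic acid breakdown, at -3.49 ± 0.06. Their log2 fold changes in Nip were 1.67, -0.48 and -1.04. Of the antenna lists, LOC_Os04g38410 differed by -3.90 ± 0.07, LOC_Os01g52240 by -3.66 ± 0.08, RCABP89 by -3.60 ± 0.07, LOC_Os02g10390 by -3.49 ± 0.06, LOC_Os08g33820 by -3.15 ± 0.07 and LOC_Os07g37550 by -3.09 ± 0.07. Of the photosystem and Calvin cycle lists, LOC_Os01g31690 differed by -3.55 ± 0.05, LOC_Os09g30340 by -3.13 ± 0.19, LOC_Os12g08770 by -3.10 ± 0.16 and LOC_Os04g38600 by -3.07 ± 0.07. Outside the lists, LOC_Os02g45450 differed by -4.13 ± 0.10, LOC_Os04g36720 by -3.41 ± 0.11 and LOC_Os12g33130 by -3.18 ± 0.21.

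OsHsp17.4, OsHsp16.9B, LOC_Os04g36750, LOC_Os04g01740, OsHsfA2a, RAmy3A, ONAC045, LOC_Os05g43895 and LOC_Os11g47520 were under 1 in every normal library of 93-11, and Lsi1, a root marker, was under 1 in every HS library. What part tissue makeup, light or alignment to different genomes have in these differences was not tested.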

How the results depend on the processing

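The number of upregulated genes, 4446, ranged from 3151 to 5110 over the alternatives, that of downregulated genes, 5500, from 4138 to 7035, and that of genes that differed between the cultivars, 7810, from 6980 to 9838. The calls on the lists, 244, ranged from 243 to 251. Leaving out each library in turn gave 4431 to 4497 upregulated and 5449 to 5525 downregulated genes. A test against the fold threshold gave 3164 and 4138. No gene named by the rule had its call turned to the other direction. Of the 264 genes named by the rule, 241 kept their call under quantile, equal-sum and median ratio scaling, 11 lost it under at least 1 of them and 12 gained one. Leaving out a library added calls for SD1 and LOC_Os02g41650, whose log2 fold change was -0.99. No shared effect of the replicate number was seen, as same-numbered libraries correlated at -0.02, 0.05 and -0.06 in their deviations. With 3 libraries a group, this cannot show whether same-numbered samples were grown or collected together. With a replicate block 4454 genes were upregulated, 5504 downregulated and 7825 different between the cultivars, and no named call changed. Files without counts limit what can be said of genes with low FPKM.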

Other observations

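On 3 of the 4 defence lists the median was lower in Nip than in 93-11. Of 10 defence WRKY factors, 7 responded more positively in 93-11 and none more negatively, against 20.8% and 19.6% of all genes, with a median log2 fold change of -0.46 in 93-11 and -2.46 in Nip. With equal sums 6 were more positive, while of all 19296 genes 1764 were more positive and 8074 more negative. Of 8 genes of the phenylalanine ammonia-lyase list, 7 were more positive in 93-11, or 4 with equal sums, at medians of -1.08 and -3.53. Of 7 pathogenesis genes, 5 were more positive, or 4 with equal sums, at medians of -2.24 and -3.41. The clustered diterpene genes had medians of -1.45 in 93-11 and -1.13 in Nip. None of 8 was more positive in 93-11 and 1 was more negative, or 4 with equal sums. In 93-11, 5 of the 8 were under 1 in every HS library and met the filter through their normal values alone. Nothing is therefore read from the order of these 2 medians.

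Several of the genes with the highest FPKM upon HS stand outside the lists and have no annotation in the sources used here. LOC_Os01g15270 went from 1868, 1914 and 2067 to 16916, 15885 and 15087, LOC_Os04g58280 from 801, 813 and 859 to 7098, 7124 and 6713 and LOC_Os12g25090 from 232, 208 and 244 to 6621, 5889.6 and 6052. With SALT, RAmy3D and LOC_Os04g56430 these were the 6 highest genes upon HS. LOC_Os01g15270 alone took 1.90 to 2.09% of the summed FPKM of the HS libraries and 0.32 to 0.335% of that of the normal libraries.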
